A study of Mus musculus with 7 samples.

Results

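The genes described here are Pcbp2, the targeted gene of the study, and 9 genes around it on mouse chromosome 15: Pfdn5, Myg1, Aaas, Sp1, Amhr2 and Prr13 on its upstream side, and Map3k12, Tarbp2 and Npff on its downstream side. They were chosen by their place around Pcbp2, with earlier results of these data known. They were found by symbol in the authors' deposited table, which held all 10 of the 10. They are 10 of 38924 genes in the count files, and all 10 had enough reads to be among the 16226 genes tested. They span 102326116 to 102524942 of chromosome 15 in build mm10, or 198.827 kb. Only these 10 genes of that span were chosen, and others lie between them, among them the tested gene Sp7.

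The libraries were made from mRNA of mouse fetal liver at 12.5 days post coitum. There were 4 wild type libraries (replicates 1 to 4) and 3 PCBP2 knockout libraries (replicates 3 to 5). The labels give no strain, sex, litter or batch, and the deleted part of Pcbp2, and whether it was deleted in all cells, stay unstated in the sources used here. Nothing in the labels says that each library came from a separate embryo, so each p-value reflects only spread among these libraries, which may be technical.

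PCBP2 is an RNA-binding protein with KH domains that recognises runs of C in RNA and takes part in splicing, mRNA stability and translation. Pcbp1 is a retrotransposed, intronless copy of it on another chromosome. The neighbours of Pcbp2 have no shared role: MAP3K12 (also called DLK) is a kinase upstream of JNK, TARBP2 is a partner of Dicer, SP1 is a transcription factor that binds GC boxes, and ALADIN, made by Aaas, sits in the nuclear pore. The question for this stretch of DNA is whether the genes beside the targeted one differed as well.

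Reads assigned to genes ran from 31898339 to 44544889 per library, and 3 reads, the limit that a count of 0 allows, correspond to 0.0662 to 0.102 CPM (counts per 1000000 reads in genes, scaled with TMM factors); such floors cover counting error only. Over all genes tested, 258 rose and 556 fell in the knockout libraries (edgeR adjusted p under 0.05), 5.02% of genes in either direction. Single libraries moved these counts: leaving out knockout replicate 5 gave 24 higher and 116 lower, knockout replicate 4 gave 107 and 242, and wild type replicates 1, 3 and 4 gave 148 and 363, 79 and 286, and 93 and 324. Leaving out wild type replicate 2 gave 418 higher and 753 lower. The liver markers Alb, Afp, Ttr and 7 others were all present, summing to 6153 to 12885 CPM in wild type and 7636 to 9807 CPM in knockout. Wild type replicate 1 stood apart in the targeted gene itself, and the values of Pcbp2 and the fold change of Map3k12 are given with and without it.

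Among the 10 genes, Pcbp2 fell, Map3k12 rose and the other 8 did not pass the test. The share of all genes tested that rose was 1.59%, and the share that fell was 3.43%. The groups did not overlap for 2 of the 10 genes, Pcbp2 and Map3k12, against 20.6% of all genes tested (9.83% with all knockout libraries above and 10.8% with all below). The median log2 fold change was 0.07 over the 10 genes and 0.01 over all genes tested.

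Upstream sequence is shown for the 3 genes that the results turn on: the targeted gene, the neighbour that rose and the gene that starts back to back with that neighbour. Each line holds the 250 bases before a RefSeq start site in GRCm38.p6, 5′ to 3′ on the gene's own strand, and the capitals mark GC boxes, searched as GGGCGG and as CCGCCC for the other strand. The first is chr15:102470289-102470538 on the plus strand, the second chr15:102517005-102517254 on the minus strand and the third chr15:102517942-102518191 on the plus strand.
Pcbp2: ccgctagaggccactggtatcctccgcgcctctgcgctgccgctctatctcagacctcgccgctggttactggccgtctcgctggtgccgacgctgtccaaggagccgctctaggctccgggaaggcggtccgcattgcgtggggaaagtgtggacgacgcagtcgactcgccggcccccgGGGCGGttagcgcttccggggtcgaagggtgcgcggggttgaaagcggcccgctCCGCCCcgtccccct
Map3k12: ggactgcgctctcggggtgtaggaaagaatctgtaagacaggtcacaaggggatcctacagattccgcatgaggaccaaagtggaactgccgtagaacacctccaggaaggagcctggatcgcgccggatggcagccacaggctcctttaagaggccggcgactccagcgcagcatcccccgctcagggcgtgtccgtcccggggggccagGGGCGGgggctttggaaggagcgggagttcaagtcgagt
Tarbp2: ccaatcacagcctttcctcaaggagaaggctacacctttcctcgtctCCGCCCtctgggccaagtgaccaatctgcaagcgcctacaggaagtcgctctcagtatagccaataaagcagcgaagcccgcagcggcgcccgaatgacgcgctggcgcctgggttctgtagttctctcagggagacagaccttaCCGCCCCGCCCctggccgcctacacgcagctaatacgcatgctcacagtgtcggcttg

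The Pcbp2 window held 2 GC boxes, that of Map3k12 held 1 and that of Tarbp2 held 3, overlapping matches counted separately. RefSeq gives a second start site each for Pcbp2 and Map3k12, and the 250 bases before these hold 10 and 2 matches. Promoter windows were found for 8 of the 10 genes, 10 windows in all, and 8 of the 10 windows held a GC box, against 32.7% of 32851 windows of the same length. Pcbp2 and Map3k12 count with 2 windows each, and the 2 windows of Pcbp2 overlap. The 8 of 10 is therefore not a share of genes, and the difference from 32.7% was not tested. Of the 8 genes, only Aaas and Pfdn5 had no window with a GC box. The match is a description of sequence only.

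Pcbp2 (ENSMUSG00000056851.7) lies on the plus strand from 102470539 to 102500061. It had 165, 329, 347 and 338 CPM in wild type replicates 1 to 4 and 2.24, 1.39 and 2.22 CPM in knockout replicates 3 to 5. Wild type replicate 1 was the low one, at 48.8% of the mean of the other 3 wild type libraries (338 ± 9.19 CPM, SD, n = 3), and every knockout library was far below it. In reads, the knockout libraries held 74, 63 and 78 and the wild type libraries 4868, 13479, 12692 and 14682. Pcbp2 fell by 7.26 ± 0.34 (SE) on the log2 scale, a 153-fold difference (edgeR adjusted p = 1.29e-05). Without wild type replicate 1 it fell by 7.45 (edgeR adjusted p = 2.27e-07). The mean of the knockout libraries was 0.662% of the mean of the 4 wild type libraries, 0.577% of that without wild type replicate 1, and 1.18% of wild type replicate 1 alone. The remaining reads were above the floor of 3 in each knockout library, and the files hold 1 count per gene, so the exons they came from are not known. This drop is the check of the knockout labels and not a result about the window.

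**Figure D1:**
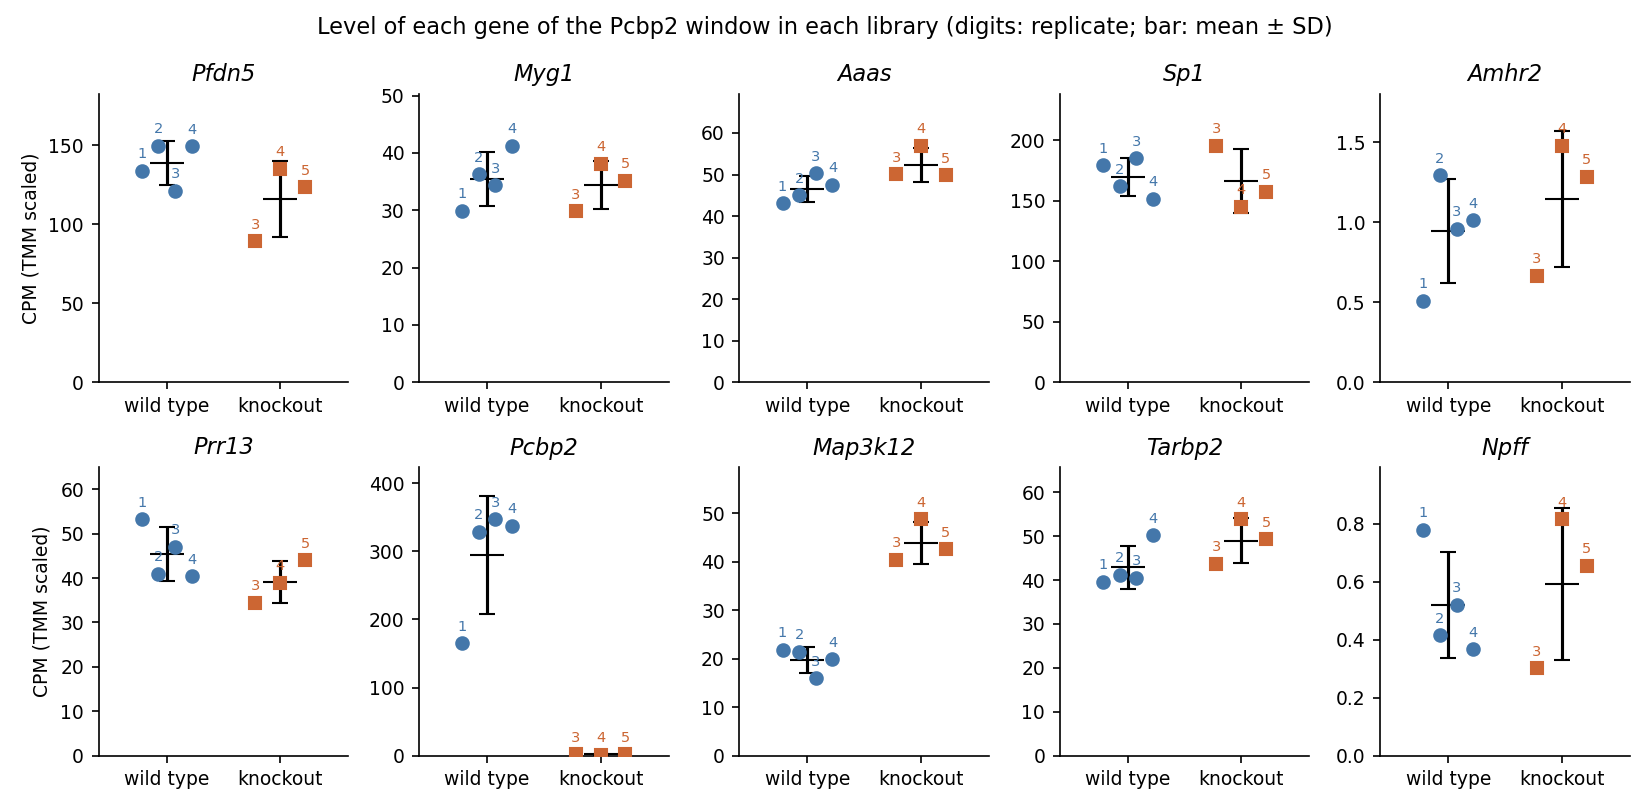
Level of each of the 10 genes (TMM-scaled CPM, linear axes from 0, a scale per gene) in 4 wild type and 3 knockout libraries; points are libraries with their replicate numbers, and the bars are mean ± SD. The knockout points of Map3k12, at 40.4 to 48.9 CPM, sit above all wild type points, at 16.01 to 21.9 CPM, while in every panel but those of Pcbp2 and Map3k12 the groups overlap.

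Map3k12 (ENSMUSG00000023050.2) is the nearest gene downstream and lies on the minus strand from 102497646 to 102517064, so that it is transcribed towards Pcbp2. Its product is a mixed-lineage kinase that activates MAP2K4 and MAP2K7 and through them JNK, best known from the response of neurons to injury. It had 21.9, 21.4, 16.01 and 19.9 CPM in wild type replicates 1 to 4 and 40.4, 48.9 and 42.6 CPM in knockout replicates 3 to 5. All 3 knockout libraries were above all 4 wild type libraries. The wild type mean was 19.8 ± 2.67 CPM (SD, n = 4), the knockout mean 43.95 ± 4.37 CPM (SD, n = 3), and Map3k12 thus rose 2.22-fold, with a 95% interval from 1.82 to 2.71 (log2 1.15 ± 0.13, SE; edgeR adjusted p = 0.00257). By p-value it ranked 24 among all genes tested and 3 among the 258 genes that rose, and by fold it ranked 71 among those 258. In the authors' deposited table its log2 fold change is 1.13 with an adjusted p of 6.81e-13.

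The rise of Map3k12 passed under all 15 alternatives run, with log2 fold changes from 1.06 to 1.31 and edgeR, DESeq2 or limma-voom adjusted p of at most 0.0180. Without wild type replicate 1, the library with low Pcbp2, it was 1.20 (edgeR adjusted p = 0.00510). In order of rising Pcbp2, the wild type libraries are replicates 1, 2, 4 and 3, at 165, 329, 338 and 347 CPM. Map3k12 stood at 21.9, 21.4, 19.9 and 16.01 CPM in that order. Replicates 2, 4 and 3 lie close together in Pcbp2 (338 ± 9.19 CPM, SD, n = 3). In the same order, the 10 neural markers described below summed to 67.1, 87.9, 45.1 and 25.1 CPM, and to 39.98 to 57.5 CPM in knockout. Both orders over 4 libraries are given as a description, and neither was tested. There were 7.52 Pcbp2 reads for each Map3k12 read in wild type replicate 1 and 15.4 to 21.7 in the other wild type libraries, against 0.0285 to 0.0553 in the knockout libraries.

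The ends of Pcbp2 and Map3k12 overlap by 2416 bp in the annotation (GENCODE M21). The whole last exon of Pcbp2, from 102498489 to 102500061 (1573 bp), lies inside the last exon of Map3k12, from 102497646 to 102500176 (2531 bp), on the other strand. The shared 1573 bp make up 30.2% of the exonic length of Pcbp2 and 17.5% of that of Map3k12, with all transcripts of each gene joined. The libraries were made with a stranded kit, but the sources used here do not say whether the authors counted by strand. Without strand, reads from the shared stretch cannot be told apart, and how the counting treated them was not tested. Reads that HTSeq set aside as ambiguous between genes made up 0.447 to 0.504% of reads in wild type and 0.461 to 0.536% in knockout. These shares cover all genes, so they cannot show how reads from this stretch were counted.

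**Figure D2:**
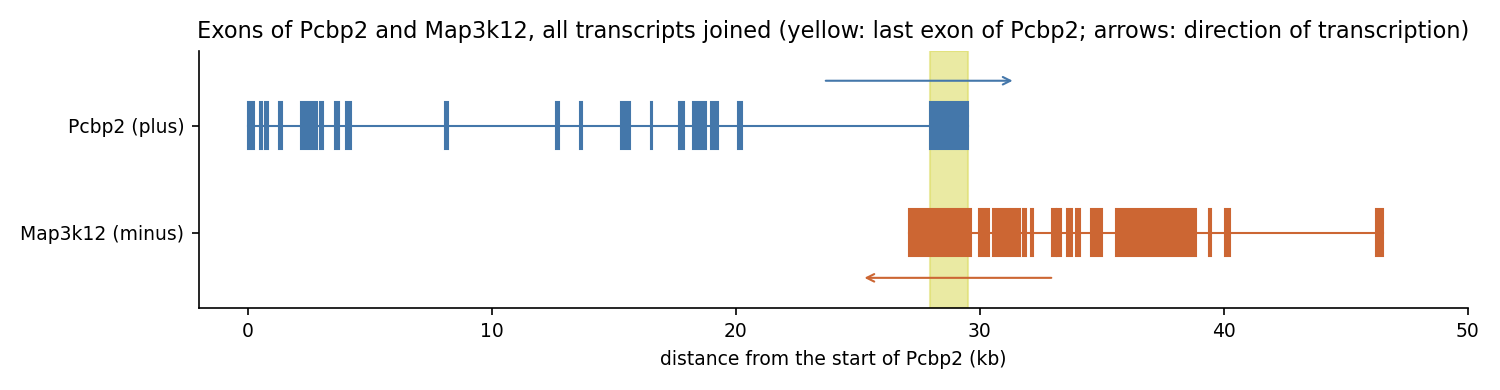
Exons of Pcbp2 (plus strand) and Map3k12 (minus strand), with all annotated transcripts of each gene joined, against distance from the start of Pcbp2 in kb. The band marks the last exon of Pcbp2, 1573 bp, which falls wholly within the last exon block of Map3k12.

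An antisense RNA gene, Gm26518, runs across Prr13 and the first part of Pcbp2, both of which are on the plus strand. It lies on the minus strand, from 102455526 to 102483722. It had 3, 15, 3 and 3 reads in wild type replicates 1 to 4 and 0, 1 and 1 reads in knockout replicates 3 to 5, which is too few to be tested. The small RNA gene Gm27406 inside Pcbp2 had at most 4 reads in any library.

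Markers of several cell types also differed between the groups. The 9 erythroid markers found summed to 49673 to 89252 CPM in wild type and 11981 to 16141 CPM in knockout, and 7 of the 9 fell. The 7 endothelial markers summed to 189 to 251 CPM and 255 to 335 CPM, and 3 rose; the 7 cardiac muscle markers summed to 69.2 to 128 CPM and 74.997 to 352 CPM, and 3 rose. Knockout replicate 3 alone set the upper end of the cardiac sum, with 352 CPM against 74.997 and 154 CPM in knockout replicates 4 and 5; for Myh6, the atrial myosin heavy chain, these libraries had 37.9, 2.18 and 11.4 CPM. In the same order, 5 of 6 megakaryocyte markers (267 to 368 and 142 to 161 CPM) and 5 of 6 macrophage markers (163 to 209 and 98.6 to 122 CPM) fell. Of 8 adrenal and gonad markers 4 were tested and 1, the steroid enzyme gene Hsd3b1, fell. Wild type replicate 2 stood apart in that list, with a sum of 40.5 CPM against 10.8 to 12.6 CPM in the other wild type libraries and 5.99 to 7.33 CPM in knockout, and with 148 reads of Nr5a1, a steroidogenic factor, against 1 to 3 in every other library. No stellate and mesothelial, skeletal muscle, or gut and pancreas marker passed. None of 10 neural markers passed (25.1 to 87.9 and 39.98 to 57.5 CPM); that list was added after the values of Map3k12 were seen. No marker in these lists was at 0 in every library. The log2 fold change of Map3k12 was 1.21 without knockout replicate 3 and 1.18 without wild type replicate 2 (edgeR adjusted p = 0.00547 and 0.00211). The part of the other marker differences in the rise of Map3k12 was not tested, and in bulk tissue fewer (or more) cells of a type and less (or more) RNA per cell cannot be told apart.

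Poly(C)-binding proteins often bind in the 3′ untranslated region, and its share of C is given here as a description of sequence only. Binding was not measured, and its part in the rise of Map3k12 was not tested. In Map3k12, C made up 19.5% of the 2435 bases of this region (the transcript with the longest coding part). That is percentile 30.8 of 13809 tested genes with such a region of at least 100 bases, whose median was 22.02%. The letters CCCC occurred 2.46 times per kb on the RNA strand, at percentile 40.6. Pcbp2 itself had 21.0% C, at percentile 41.5, and 7.16 CCCC per kb, at percentile 77.0. Of the 8 genes of the window with a region of that length, Myg1 had the most CCCC per kb, 9.84, and Amhr2 had none in 124 bases.

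Tarbp2 (ENSMUSG00000023051.4), from 102518192 to 102523676 on the plus strand, starts 1127 bp from the annotated start of Map3k12 and runs the other way. Its product, TRBP, binds double-stranded RNA and helps Dicer load small RNAs onto Argonaute. It had 39.6, 41.3, 40.6 and 50.2 CPM in wild type and 43.7, 53.9 and 49.3 CPM in knockout. The groups overlap through wild type replicate 4, and the gene did not pass (1.14-fold, 95% interval 0.953 to 1.37; edgeR adjusted p = 0.379). The upper end of that interval lies below the lower end for Map3k12, 1.82, but the difference between these genes was not tested.

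Npff (ENSMUSG00000023052.7), from 102523839 to 102524942 on the minus strand, encodes the precursor of neuropeptide FF, which modulates pain. It was close to the limit of detection, with 23, 17, 19 and 16 reads in wild type and 10, 37 and 23 reads in knockout. Knockout replicate 3 was the lowest and knockout replicate 4 the highest of the 7 libraries on the CPM scale, at 0.302 and 0.816 CPM. The 1.17-fold difference had a 95% interval from 0.622 to 2.19 (edgeR adjusted p = 0.797), which includes a 2-fold difference, and its sign turned without knockout replicate 4 (log2 -0.09). In the annotation its exons overlap those of Gm28047, a long gene on the same strand from 102523843 to 102625067, for which the files list 0 reads in every library; how the counting treated the overlap was not tested.

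Upstream, Prr13 (ENSMUSG00000023048.7) ends 7732 bp before Pcbp2, from 102459028 to 102462806 on the plus strand, and encodes a small proline-rich protein. It had 53.3, 41.0, 47.1 and 40.5 CPM in wild type and 34.4, 38.9 and 43.97 CPM in knockout. Knockout replicates 3 and 4 lay below every wild type library, and knockout replicate 5 lay within their range. The fold was 0.861 with a 95% interval from 0.706 to 1.05 (edgeR adjusted p = 0.366).

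Amhr2 (ENSMUSG00000023047.4), from 102445367 to 102454633 on the plus strand, encodes the receptor for anti-Müllerian hormone, known from the gonads. It stood at 0.508, 1.29, 0.958 and 1.01 CPM in wild type and 0.665, 1.48 and 1.28 CPM in knockout, from 15 to 67 reads per library. The groups overlap across most of their range. The 1.21-fold difference had a 95% interval from 0.683 to 2.14 (edgeR adjusted p = 0.715).

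Sp1 (ENSMUSG00000001280.6), from 102406143 to 102436404 on the plus strand, encodes the GC-box factor whose sites are marked in the sequences above. It was at 179, 162, 185 and 152 CPM in wild type and 196, 145 and 158 CPM in knockout. Knockout replicate 3 was the highest and knockout replicate 4 the lowest of the 7 libraries. The fold was 0.980 with a 95% interval from 0.813 to 1.18 (edgeR adjusted p = 0.917), and its sign changed with the scaling, to a log2 value of 0.09 with total-count scaling.

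The 3 genes farthest upstream are packed end to end. Aaas (ENSMUSG00000036678.7), from 102338252 to 102350771 on the minus strand, lies 112 bp from Myg1 (ENSMUSG00000001285.6), from 102331709 to 102338139 on the plus strand. Myg1 overlaps Pfdn5 (ENSMUSG00000001289.6), from 102326116 to 102331873, by 165 bp on the same strand, and reads from that stretch cannot be assigned with certainty.

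Aaas, whose product ALADIN is lost in triple A syndrome, had 43.0, 44.95, 50.3 and 47.5 CPM in wild type and 50.05, 57.0 and 49.8 CPM in knockout. Wild type replicate 3 lay above knockout replicates 3 and 5, and the other wild type libraries lay below all 3 knockout libraries. The 1.13-fold difference had a 95% interval from 0.967 to 1.31 (edgeR adjusted p = 0.349).
Myg1, a mitochondrial and nuclear RNA exonuclease, had 29.9, 36.3, 34.4 and 41.3 CPM in wild type and 29.8, 38.1 and 35.1 CPM in knockout. Its values in the groups cover nearly the same range, with a fold of 0.969 and a 95% interval from 0.792 to 1.19 (edgeR adjusted p = 0.876).
Pfdn5, a subunit of the prefoldin chaperone that hands unfolded actin and tubulin to the chaperonin, had 134, 149.8, 121 and 149.5 CPM in wild type and 89.1, 135 and 123 CPM in knockout. Knockout replicate 3 was the only knockout library below the wild type range. The fold was 0.836 with a 95% interval from 0.671 to 1.04 (edgeR adjusted p = 0.327).

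Taking the 8 genes that did not pass, 4 had positive and 4 negative log2 fold changes, from -0.26 for Pfdn5 to 0.27 for Amhr2, with a median of 0.07. None had an unadjusted p under 0.05, against 21.8% of all genes tested, and none passed under any of the 15 alternatives. Npff and Amhr2 were tested under 14 of these, as the filter of at least 5 CPM in 3 libraries left them out. Of the 10 genes, 2 in the authors' deposited table are under an adjusted p of 0.05, again Pcbp2 and Map3k12. For the 6 of the 8 other than Amhr2 and Npff, the 95% intervals together run from 0.671-fold to 1.37-fold.

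**Figure D3:**
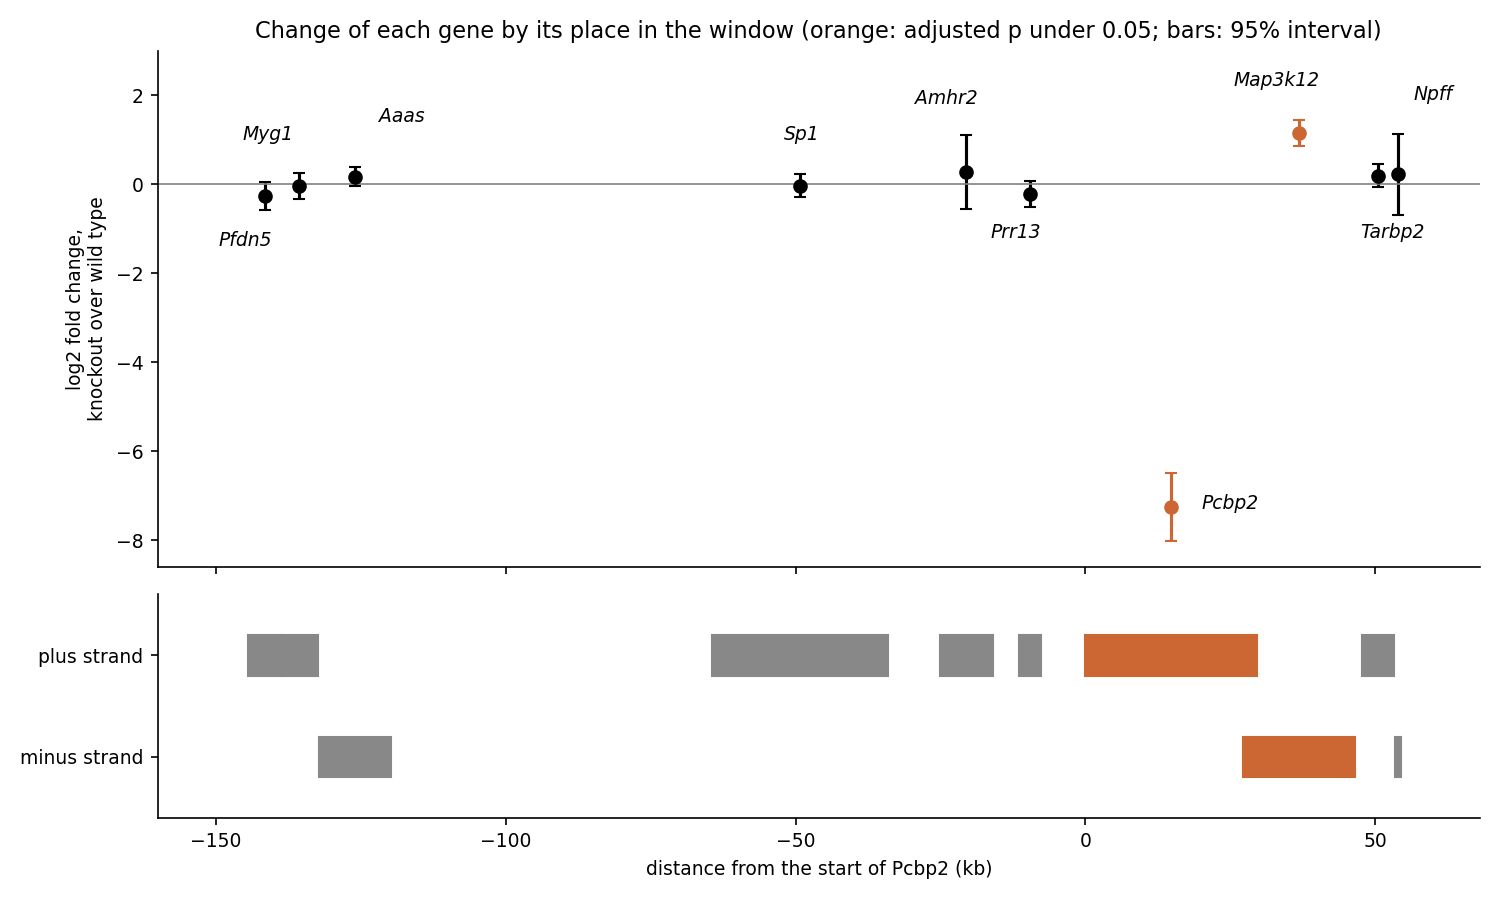
Log2 fold change of each gene, knockout over wild type, with its 95% interval, at the middle of the gene (upper panel), and the extent of each gene on its strand (lower panel), against distance from the start of Pcbp2 in kb. Pcbp2 lies at -7.26 and its overlapping neighbour Map3k12 at 1.15, and the intervals of the other 8 genes cross 0.

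Per kb of exon, the wild type levels ran from Pfdn5 at 99.4 ± 9.94 CPM per kb (SD, n = 4) through Pcbp2 at 56.6 ± 16.7, Prr13 at 29.1 ± 3.86, Sp1 at 20.5 ± 1.87, Aaas at 16.6 ± 1.13, Myg1 at 12.6 ± 1.67 and Tarbp2 at 9.44 ± 1.08 to Map3k12 at 2.204 ± 0.298. Npff and Amhr2 came last, at 0.519 ± 0.183 and 0.470 ± 0.162 CPM per kb, and do not differ beyond their spread. Without wild type replicate 1, Pcbp2 was at 64.96 ± 1.77 CPM per kb (SD, n = 3), still in the second place. In knockout, Map3k12 stood at 4.89 ± 0.487 CPM per kb (SD, n = 3), still below Tarbp2 at 10.8 ± 1.12. Pcbp2, at 0.375 ± 0.0933 CPM per kb, was in the range of Npff (0.590 ± 0.262) and Amhr2 (0.570 ± 0.212).

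Beyond these genes, 10 others within 250 kb of Pcbp2 were tested and none passed (edgeR; 2 had an unadjusted p under 0.05, and the counts within 1 Mb by other tools are given with the alternatives). The nearest, listed as ATF7 in the authors' table, a transcription factor gene 25.9 kb downstream, had 40.1 ± 4.34 CPM (SD, n = 4) and 43.2 ± 3.09 CPM (SD, n = 3). Its span overlaps that of Gm28047 on the same strand, which had 0 reads in every library. How the counting treated this overlap was not tested. Rarg, a retinoic acid receptor 213 kb upstream, had 15.8 ± 3.22 and 23.6 ± 3.45 CPM without overlap of the groups (edgeR adjusted p = 0.0808). Itgb7, an integrin subunit 239 kb upstream, had 3.62 ± 0.516 and 2.15 ± 0.409 CPM, also without overlap (edgeR adjusted p = 0.0793). The log2 fold changes of Sp7, Espl1, Mfsd5, Rpl39-ps, Atp5g2 and Calcoco1, the others with at least 1 CPM, ran from -0.09 to 0.46.

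Within 1 Mb, 34 genes outside the chosen 10 were tested, and 1 rose and 1 fell, or 5.88%, against 5.02% of all genes tested. Krt5, a keratin of basal epithelium 758 kb upstream, had 0.474, 0.659, 0.274 and 1.33 CPM in wild type and 2.72, 4.21 and 11.4 CPM in knockout (edgeR adjusted p = 0.0144, but 0.0701 without knockout replicate 5). Nfe2, a transcription factor of the megakaryocyte and red cell lineages 748 kb downstream, fell from 119 ± 28.0 to 47.7 ± 8.76 CPM (log2 -1.32 ± 0.20, SE; edgeR adjusted p = 0.00673), beside the fall of the megakaryocyte and erythroid markers given above; their part in it was not tested. Leaving out wild type replicate 2 gave 4 that rose, leaving out knockout replicate 3 gave 2 and leaving out knockout replicate 5 gave 0. Farther out the share called was 6.17% of 81 genes at 1 to 5 Mb, 2.80% of 107 genes at 5 to 20 Mb and 5.70% of 386 genes on the rest of the chromosome. The median log2 fold change was 0.10 within 1 Mb, 0.09 at 1 to 5 Mb, 0.03 at 5 to 20 Mb and -0.01 on the rest of the chromosome. In the same order, the lower and upper quartiles were -0.203 and 0.250, -0.195 and 0.299, -0.156 and 0.172, and -0.203 and 0.198. The bands thus overlap widely, and the difference between their medians was not tested.

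**Figure D4:**
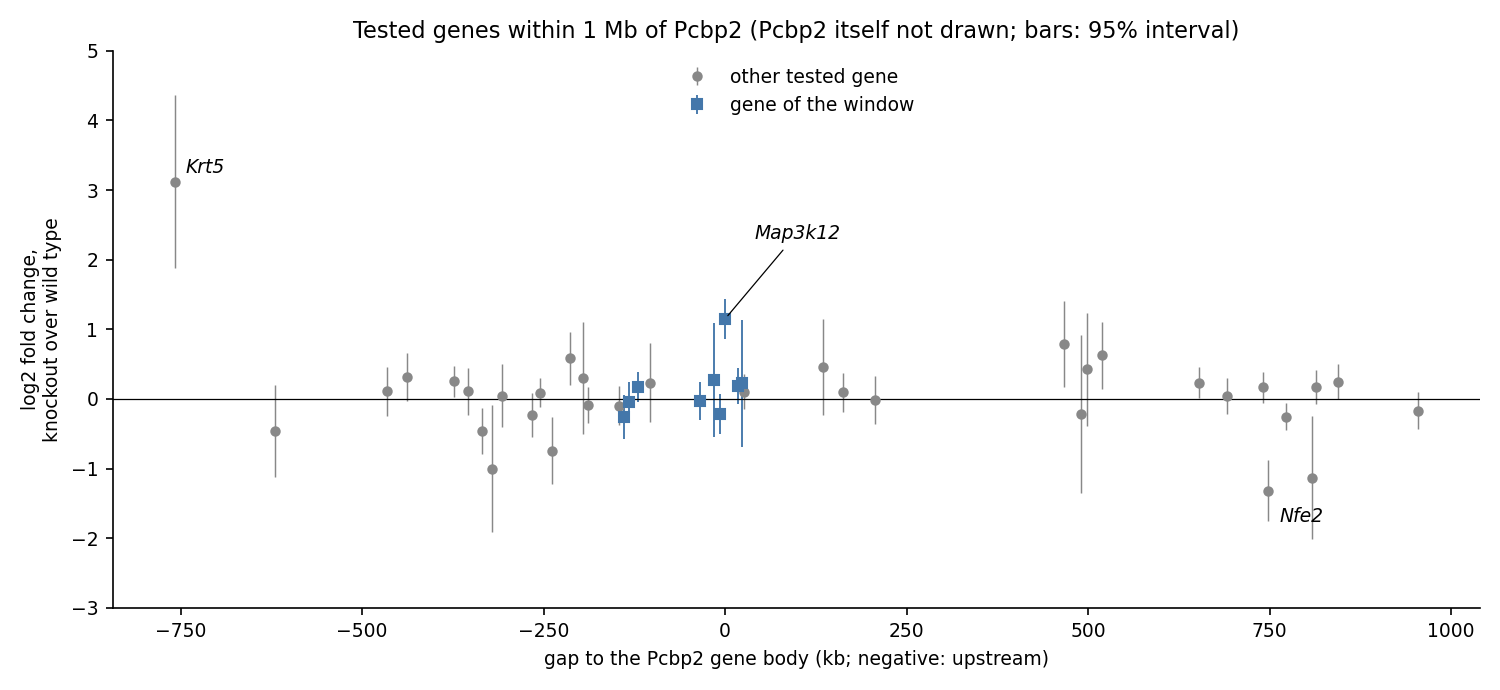
Log2 fold change with its 95% interval for the tested genes within 1 Mb of Pcbp2, against the gap to the Pcbp2 gene body in kb (0 for the overlapping Map3k12); squares are the genes of the window and circles the others. Map3k12, at 1.15, stands above its near neighbours, and Krt5 and Nfe2, over 700 kb away, are the others that passed.

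Next come 60 tested genes listed for their tie to those of the window, called partners here. They are members of shared pathways and complexes, and also family relatives such as the SP and poly(C)-binding genes. Sp7 is at the same time one of the genes within 250 kb. Of the 60, 1 rose and none fell, or 1.67% called, against 5.02% of all genes tested (1.59% higher). Of 12 genes of the MAP3K12 to JNK pathway, 1 rose and none fell, with a median of 0.10. It was Mapk8ip3, which encodes the JNK scaffold JIP3, at 47.2, 50.5, 52.4 and 50.3 CPM in wild type and 59.998, 82.6 and 67.4 CPM in knockout (log2 0.48 ± 0.11, SE; edgeR adjusted p = 0.0408). Leaving out any 1 of the wild type libraries, or knockout replicate 4 or 5, ended this call, with edgeR adjusted p from 0.0539 to 0.132, while the log2 fold change was 0.35 without knockout replicate 4 and 0.45 to 0.51 without each of the other 5. The kinases below MAP3K12 had log2 fold changes of 0.08 for Map2k4, 0.13 for Map2k7, 0.15 for Mapk8 and 0.15 for Mapk9, none past the test. Jun, a target of JNK, averaged 26.6 and 36.3 CPM in the groups (edgeR adjusted p = 0.323), and Map3k13, the closest relative of Map3k12, 2.84 and 2.89 CPM (edgeR adjusted p = 0.961).

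None of the 10 small-RNA processing genes passed (median 0.09); the smallest p-value was that of Drosha, the nuclear microRNA processing enzyme (log2 0.22, edgeR adjusted p = 0.167), followed by that of Eif2ak2, the kinase PKR that TRBP inhibits (log2 -0.60, edgeR adjusted p = 0.239). None of 8 other SP family genes passed (median -0.02). Sp5 had 0.351 and 0.804 CPM (edgeR adjusted p = 0.156) and Sp9 0.343 and 0.158 CPM (edgeR adjusted p = 0.248). None of 12 nuclear pore genes passed (median 0.04), with Pom121, a membrane nucleoporin, at a log2 of 0.23 (edgeR adjusted p = 0.238) and Nup155, a scaffold nucleoporin, at 0.23 (edgeR adjusted p = 0.242).
Of 8 listed genes of prefoldin and its relatives, 7 were found by name, and none of these passed. Their median was -0.19 against 0.01 over all genes. Pdrg1, of a prefoldin-like complex, had a log2 of -0.37 (edgeR adjusted p = 0.0726) and Pfdn4, a subunit of the same complex as Pfdn5, -0.35 (edgeR adjusted p = 0.0961). The others found were at -0.32 for Vbp1, -0.19 for Uxt, -0.13 for Pfdn1, 0.00058 for Pfdn2 and 0.18 for Uri1. None of 7 tested genes of the anti-Müllerian hormone receptor pathway passed (median 0.16). Bmpr1a and Smad4, which encode a type I receptor and the shared SMAD, had log2 values of 0.23 and 0.20 (edgeR adjusted p = 0.225 and 0.238), and the ligand gene Amh had at most 10 reads in any library. The receptors of neuropeptide FF, Npffr1 and Npffr2, had at most 3 reads in any library.

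None of the 4 other KH-domain poly(C)-binding genes passed. Pcbp1 averaged 299 CPM in the wild type libraries and 277 CPM in the knockouts (edgeR adjusted p = 0.561), Pcbp3 9.54 and 10.8 CPM (edgeR adjusted p = 0.451), Pcbp4 48.2 and 66.3 CPM (edgeR adjusted p = 0.238, but 0.0452 with the replicate block) and Hnrnpk 1139 and 1178 CPM (edgeR adjusted p = 0.827).

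The genes with a pattern most like that of Pcbp2 over the 7 libraries, by Pearson's r of log2 CPM for genes averaging 5 CPM or more, were Galnt10 (r = 0.990), Depdc1b (0.988), Kcnab2 (0.987), Timm8b (0.987) and Ccdc3 (0.976). Genes with predicted or clone names were left out of this ranking. The points share the genotype split and the libraries, so this is a description only. Without wild type replicate 1 (6 libraries, a check added after the values were seen), r was 0.993, 0.995, 0.991, 0.987 and 0.976 in the same order. None of the 5 genes is among the tested genes within 1 Mb of Pcbp2. Depdc1b, a cell division gene, had 30.9, 24.5, 32.8 and 29.0 CPM in wild type and 5.20, 4.26 and 4.51 CPM in knockout, and thus did not share the low value of Pcbp2 in wild type replicate 1.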

How the data were processed

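Raw counts of reads for each gene were made by the authors with HTSeq after cutadapt 1.4.2 and TopHat2 on mm10, per the submitters' processing notes; their settings and annotation release are left unstated there. In the authors' deposited table the signal is a mean of normalized counts, and its log2 fold change, Wald score and p-value compare knockout with wild type. Gene positions came from GENCODE M21 on the same build, matched without version (16075 of 16226 tested genes). The 5 HTSeq summary lines stayed out of library sizes: reads in no gene were 4.89 to 7.61% and reads aligned to several places 11.3 to 19.6%.

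Counts were analysed with edgeR 4.0.16 in R 4.3.3: filterByExpr, TMM factors from 0.917 to 1.07, and a quasi-likelihood test with group as its only term on all 7 libraries, with Benjamini-Hochberg adjustment over 16226 genes and calls at an adjusted p under 0.05. Standard errors are the log2 fold change over the root of its F, and intervals use the test's degrees of freedom. Alternatives were RLE, total-count and globin-free scaling, no filter on low counts, at least 5 CPM in 3 libraries, DESeq2 1.42.0, limma-voom (limma 3.58.1), each library left out and a replicate block. The fit was tested on simulated data for the knockout comparison (16226 genes), with changes put only into genes averaging at least 1 CPM. It found 38.6% of simulated 1.5-fold changes, 78.2% of 2-fold ones and 96.8% of 4-fold ones, with 7 false calls among 142. These rates do not cover genes below 1 CPM, such as Npff.

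The members and gene lists were chosen with earlier results of these data known. Named were the 10 genes, their KH-domain relatives, genes within 250 kb with at least 1 CPM, called genes within 1 Mb, called or else the 2 partners of smallest p in each list, and the 5 genes most like Pcbp2; other partners, named for their place in a pathway, were picked after their values were seen. Promoter windows are from RefSeq.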

Additional observations from a re-analysis of the deposited data

Results flagged for a closer look

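Of 27 genes examined in the wild type libraries, 3 had 1 library that stood apart from the other 3 by more than Dixon's 95% limit, and chance alone gives about 1 in 20 groups. Pcbp2 in wild type replicate 1 was the lowest, at 165 CPM, with a gap that made up 0.899 of the range. Tarbp2 in wild type replicate 4 was the highest, at 50.2 CPM, and ATF7, 25.9 kb downstream of Pcbp2, was the lowest in the same library, at 33.6 CPM.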

How the results depend on the processing

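Pcbp2 kept its fall (log2 -7.59 to -7.04) and Map3k12 its rise (1.06 to 1.31) under all 15 alternatives, and no alternative called any of the other 8 genes. Of 118 values of these 8 genes, 9 changed sign, in Npff, Sp1 and Myg1. With single libraries left out, Npff ran from -0.093 to 0.52, Sp1 from -0.16 to 0.059 and Myg1 from -0.13 to 0.046. Total-count scaling, which moved the median of all genes from 0.01 to 0.14 and the calls to 651 higher and 393 lower, gave 0.094 for Sp1, 0.075 for Myg1 and 0.013 for Pcbp1. Of the other genes within 1 Mb, 3 rose and 4 fell with DESeq2, none rose with at least 5 CPM in 3 libraries, and 0 to 4 rose with a library left out. Of the partner genes, 0 to 1 rose with a library left out, and 2 fell with DESeq2. The replicate block uses the title's number, shared by only 2 pairs. Same-numbered libraries deviated together (r = 0.319 for 3 and 0.258 for 4), but nothing else ties them. For wild type and knockout libraries of different number, r ran from -0.329 to 0.153. With the block, 6 others within 1 Mb rose and 3 fell, 3 partners rose and 3 fell, Sp1 was 0.0085, and over all genes 852 rose and 1204 fell. DESeq2 called 617 higher and 1057 lower. The cause of these shifts was not tested. Depth limits Npff and Amhr2, with at most 67 reads per library.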
